A study of Homo sapiens with 4 samples.

Results

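The NF-κB pathway was followed in Jeko-1 and Raji, cultured B-cell lymphoma lines, and in their rituximab-resistant sublines, through 35 genes that encode its subunits, inhibitors, kinases, adaptors and feedback regulators and several of its target genes. The genes were taken by name. A gene was read where the platform annotation gave a probe set exactly 1 gene symbol, and where a gene had several such probe sets, the one brightest on average across the 4 arrays was used. Of the 35 members, 31 had a value, out of 19775 genes with a value in all. TRAF2, BCL3, RIPK1 and IRAK4 were not analysed here.

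Jeko-1 comes from a mantle cell lymphoma. Raji comes from a Burkitt lymphoma and carries Epstein-Barr virus. Rituximab is an antibody against the B-cell surface protein CD20, and the resistant sublines, Jeko-1/R and Raji/R, are labelled as treated with it and the parents as untreated. Dose, duration, clonality and whether the antibody was present at harvest are not given in the sources used here. Each of the 4 groups was read on 1 array, so there were 2 arrays per line and no replicate of any group. With 1 line of each lymphoma type, the line, the lymphoma type and the virus cannot be told apart.

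NF-κB is a family of dimeric transcription factors that are kept inactive in the cytoplasm by IκB proteins. In the canonical branch, receptors of the TNF, Toll-like and antigen receptor families signal through adaptors and the kinase MAP3K7 to the IκB kinase complex, which marks IκB for destruction and frees dimers that contain RELA or REL. The non-canonical branch runs through the kinase MAP3K14 to NFKB2, which then partners with RELB. Many genes that restrain the pathway, such as NFKBIA and TNFAIP3, are themselves switched on by it, and in B cells NF-κB supports survival and the expression of cytokines and adhesion molecules.

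NF-κB dimers bind a short DNA element, the κB site. The κB consensus of 10 bases was searched on both strands in RefSeq promoters (build GRCh38.p14), each of 300 bases from 250 before to 50 after a gene's start. Of 52 promoters of 32 members (all but NFKBIE, IKBKB and RELB), 20 held a match (38.5%), against 11.3% of all 35116 promoters in the table; by gene these were 16 of 32 members (50.0%) and 13.3% of all genes. Members were listed as parts and targets of this pathway, so a high share of matches is part of how they were chosen, and a match is a description of letters and not a shown binding site. The stretches below hold matches in members that the comparison of the lines turns on, with the matched bases in capitals. Stretches of genes higher in the Raji lines come first, then REL and NFKBIZ, which were higher in the Jeko-1 lines, and last TRAF3, which was not called, and IL6, which stayed below the signal floor.
NFKBIA (chr14:35404806-35404845, minus strand): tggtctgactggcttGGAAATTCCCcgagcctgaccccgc
NFKB1 (chr4:102501295-102501334, plus strand): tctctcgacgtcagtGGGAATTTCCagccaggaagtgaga
TNFAIP3 (chr6:137867177-137867228, plus strand): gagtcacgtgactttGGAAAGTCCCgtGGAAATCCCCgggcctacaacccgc
TNIP1 (chr5:151081052-151081091, minus strand): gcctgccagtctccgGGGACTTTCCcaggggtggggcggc
LTB (chr6:31582487-31582526, minus strand): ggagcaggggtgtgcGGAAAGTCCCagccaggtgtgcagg
REL (chr2:60881512-60881552, plus strand): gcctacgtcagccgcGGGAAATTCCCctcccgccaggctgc
NFKBIZ (chr3:101827752-101827791, plus strand): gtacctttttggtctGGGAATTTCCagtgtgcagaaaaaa
TRAF3 (chr14:102777401-102777440, plus strand): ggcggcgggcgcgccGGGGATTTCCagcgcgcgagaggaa
IL6 (chr7:22727112-22727151, plus strand): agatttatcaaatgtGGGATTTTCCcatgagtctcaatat

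In the printed stretches the matches began between 223 bases (NFKBIZ) and 33 bases (TRAF3) before the start; that of TNFAIP3 holds 2 separate matches, and the 2 in REL overlap in all but 1 base. LTB has a further match after its start and NFKBIZ another in its other promoter, neither printed. In the stretches of NFKBIA, TNFAIP3 and LTB, and in the later match of REL, the consensus lies on the opposite strand, so its reverse complement is shown. A match did not separate the groups of members described below. It was present in 9 of 18 genes called higher in the Raji lines, in 2 of 4 called higher in the Jeko-1 lines and in 3 of 5 not called. ICAM1, TNF and TRAF1 had no match in their windows.

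Values are signals, and differences are on the log2 scale. A floor was set at the pooled median of all values (signal 77.5), lower values were raised to it, and the 15575 genes that reached it on 1 array or more were tested. The Raji/R array stood apart from the others: 55.6% of its probe sets reached the floor, against 48.0% to 48.3% on the other arrays. B-cell markers were at or above the floor on every array (CD79A, CD79B, MS4A1, PAX5 and CD22, 5 of 5 with a value). Of 6 T-cell markers 0 to 2 per array reached the floor, with summed signals of 125 to 252 in the Jeko-1 lines and 317 to 408 in the Raji lines. For 4 NK-cell markers it was 0 on both Jeko-1 arrays and 2 and 3 on the Raji arrays (summed signals 103 to 159.6 and 1062 to 2093, most of it from NKG7), and for 6 myeloid markers 0 to 3 (159 to 187 and 575 to 941). Of 5 stromal and epithelial markers 3 or 4 reached it (422 to 655 and 2306 to 2389, the latter largely COL1A1). CD3E, CD2, CD8A, CD14 and LYZ were below the floor on every array. The part of these markers in the results was not tested. In RNA from a whole culture, fewer expressing cells and less RNA per cell cannot be told apart.

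The first comparison set Raji and Raji/R against Jeko-1 and Jeko-1/R. Most NF-κB genes were higher in the Raji lines, above all the lymphotoxins LTA and LTB, EBI3, ICAM1 and TNF, and with them RELA, NFKB1, RELB and the feedback inhibitors NFKBIA, TNFAIP3 and TNIP1. A smaller set went the other way: REL, NFKBIZ, CHUK, MAP3K7 and IKBKB were higher in the Jeko-1 lines. By limma's line term with Benjamini-Hochberg adjustment over all tested genes, 20 of 30 tested members were called higher in the Raji lines, where 30.1% of all genes were, and 5 were called higher in the Jeko-1 lines, where 23.3% of all genes were. EBI3, LTA, TNF and IL10 were below the floor on both Jeko-1 arrays and entered the test only through the Raji arrays, so they had to differ; 16 members called higher in the Raji lines were not of this kind. The median difference, Raji lines minus Jeko-1 lines, was 1.58 over the tested members and 0.29 over all genes tested.

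The call is a weak criterion here, since it took in 53.4% of all genes, and the fit had 1 residual degree of freedom, whose spread is how far the lines differ in their resistant-parental change. A size rule, added after the data were seen, asked for at least 2-fold between Raji and Jeko-1 and also between Raji/R and Jeko-1/R. By it 18 members were higher in the Raji lines (19.2% of all genes) and 4 in the Jeko-1 lines (17.5% of all genes). The 18 include EBI3, LTA, TNF and IL10, which passed the floor only through the Raji arrays. The calls were lost without the floor (0 of 31 members and 0 of 19775 genes at adjusted p under 0.05 by limma). At unadjusted p under 0.05 limma took in 21 of the 31 members, beside 41.4% of all genes. Each fit with 1 array left out had line as its only term. It kept 1 array of 1 line, so its residual spread was the resistant-parental gap of the other line. When Jeko-1 or Jeko-1/R was left out, that gap was the Raji pair's, and the calls were lost over all genes and not only the members. The median difference was then 1.55 over the members in either fit, beside 0.28 over all genes. When Raji or Raji/R was left out, that gap was the Jeko-1 pair's, and calls of members were lost in part. How many calls remained is not read against all genes here, since the spread came from another pair. Without Raji the median difference was 1.53 over the members and 0.34 over all genes. Without Raji/R it was 1.4969 over the members and 0.0612 over all genes. The calls of 8 members, RELB, NFKBIB, IKBKB, IKBKE, MAP3K14, TRAF1, TRAF6 and TNFAIP3, were lost whichever array was left out. Without Jeko-1 or Jeko-1/R this held for every gene, so only the fits without Raji or Raji/R set these 8 apart. How many of all called genes were lost in every fit was not counted. On all 25 called members both Raji arrays lay on the same side of both Jeko-1 arrays, so leaving out 1 array could not turn their direction. For how many of all called genes this holds was not counted. With 2 arrays on each side, 0.333 is the smallest two-sided p that an exact permutation test can give.

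**Figure D1:**
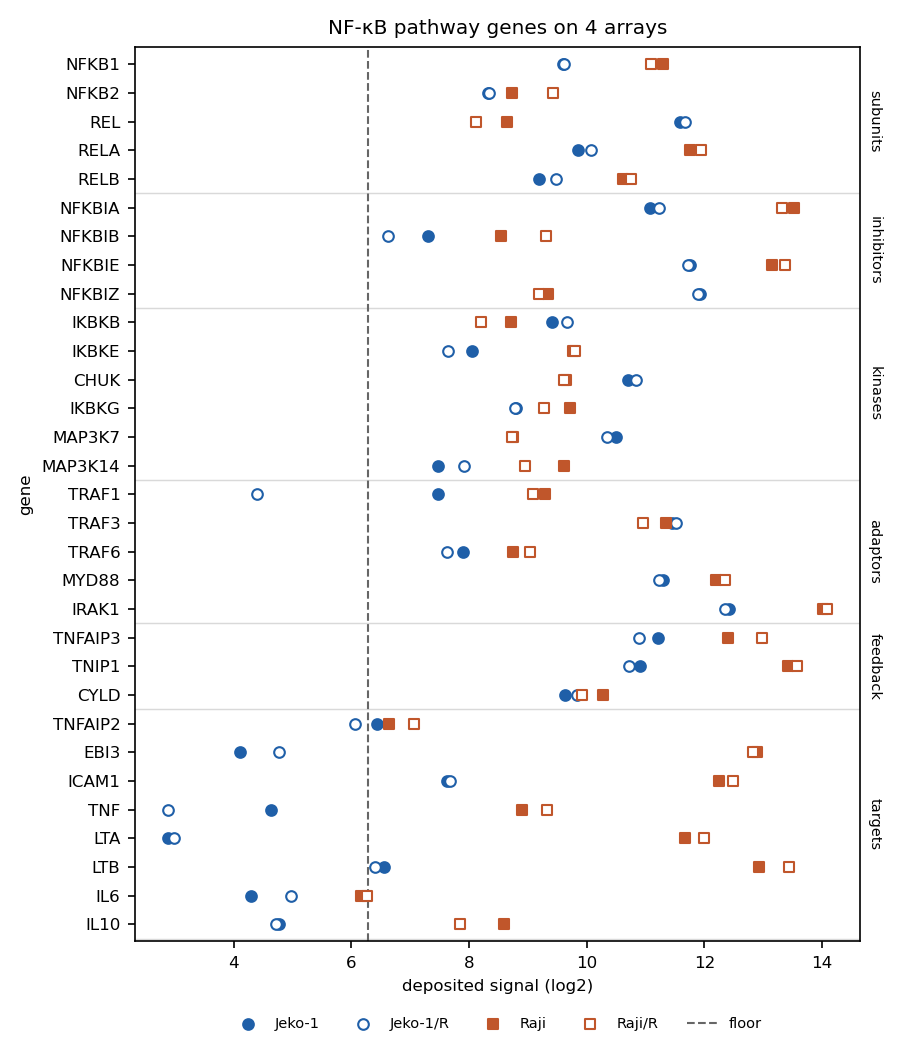
Signal (log2, x axis) of the 31 NF-κB pathway genes with a value (y axis, by role) on each of the 4 arrays; circles are Jeko-1 (filled) and Jeko-1/R (open), squares are Raji (filled) and Raji/R (open), and the dashed line is the floor at a log2 of 6.28. Arrays of a line lie close together for most genes, and LTB, EBI3, LTA and ICAM1 show the widest gaps between the lines once values are raised to the floor.

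Of the 5 transcription factor subunits, 3 were called higher in the Raji lines, 1 in the Jeko-1 lines and 1 was not called. RELA, the main activating subunit of the canonical branch, had a signal of 929 (Jeko-1) and 1081 (Jeko-1/R) against 3456 (Raji) and 3948 (Raji/R). Its difference was 1.88 ± 0.24 (SE; 3.69-fold, adjusted p = 6.96e-04 by limma), and its other probe set gave 1.15. NFKB1, which encodes the precursor of RELA's usual partner, read 773 (Jeko-1) and 787 (Jeko-1/R) against 2508 (Raji) and 2175 (Raji/R), a difference of 1.58 ± 0.25 (SE; 2.99-fold, adjusted p = 0.00162). For both genes the lowest Raji array was well above the highest Jeko-1 array.

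REL, the lymphocyte subunit c-Rel, showed the reverse order, with 3071 (Jeko-1) and 3244 (Jeko-1/R) against 401 (Raji) and 278 (Raji/R). This was 9.46-fold higher in the Jeko-1 lines (-3.24 ± 0.27, SE; adjusted p = 1.15e-04). Its other probe sets gave -2.18, -2.03 and -1.51, and a dim probe set near the floor gave 0.20. RELA and REL, which both serve as activating subunits, thus stood on opposite sides between the lines by several fold each.

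In the non-canonical branch RELB read 583 (Jeko-1) and 715 (Jeko-1/R) against 1563 (Raji) and 1723 (Raji/R) and was 2.54-fold higher in the Raji lines (1.35 ± 0.25, SE; adjusted p = 0.0032). NFKB2, its partner, read 319 (Jeko-1) and 325 (Jeko-1/R) against 422 (Raji) and 688 (Raji/R). Its difference of 0.74 ± 0.28 did not pass the test (adjusted p = 0.057); with quantile normalization it was 1.12 and called (adjusted p = 0.0179), and with the mean of its probe sets it was -0.18. MAP3K14, the kinase that starts this branch, read 178 (Jeko-1) and 243 (Jeko-1/R) against 779.8 (Raji) and 496 (Raji/R). It was 2.99-fold higher in the Raji lines (1.58 ± 0.32, SE; adjusted p = 0.00518), with both Raji arrays above both Jeko-1 arrays.

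Among the inhibitors, 3 of the 4 measured genes were called higher in the Raji lines and 1 in the Jeko-1 lines. NFKBIA encodes IκBα, which holds dimers in the cytoplasm and is an NF-κB target. Its signal was 2156 (Jeko-1) and 2408 (Jeko-1/R) against 11777 (Raji) and 10151 (Raji/R), 4.8-fold higher in the Raji lines (2.26 ± 0.25, SE; adjusted p = 3.76e-04). This rests on an s_at probe set; the dimmer other one gave 0.47 and was not called (adjusted p = 0.242) when s_at and x_at probe sets were left out. NFKBIE, which encodes IκBε, read 3445 (Jeko-1) and 3362 (Jeko-1/R) against 9063 (Raji) and 10523 (Raji/R) (2.87-fold, adjusted p = 0.00196). NFKBIB, which encodes IκBβ, was dimmer, with 158 (Jeko-1) and 98.6 (Jeko-1/R) against 373 (Raji) and 629.9 (Raji/R) (3.89-fold, adjusted p = 0.00359). Its arrays within a line were further apart than those of the other inhibitors, and with the higher floor the difference was 0.40 and not called (adjusted p = 0.160).

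NFKBIZ encodes a nuclear IκB protein that modifies which target genes are expressed rather than holding dimers in the cytoplasm. It read 3908 (Jeko-1) and 3779 (Jeko-1/R) against 645 (Raji) and 582 (Raji/R), 6.27-fold higher in the Jeko-1 lines (-2.65 ± 0.24, SE; adjusted p = 1.68e-04), and its other probe set gave -2.11. NFKBID, another nuclear IκB gene, from the further list of negative regulators, read 205 (Jeko-1) and 193 (Jeko-1/R) against 392 (Raji) and 308 (Raji/R) and was higher in the Raji lines (0.81 ± 0.25, SE; adjusted p = 0.0291; named after its values were seen). The nuclear IκB genes thus did not share a direction.

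The 6 kinase genes were split, with 3 called higher in the Jeko-1 lines, 2 in the Raji lines and 1 not called. MAP3K7, which activates the IκB kinase complex, read 1448 (Jeko-1) and 1303 (Jeko-1/R) against 428 (Raji) and 424 (Raji/R). It was 3.22-fold higher in the Jeko-1 lines (-1.69 ± 0.24, SE; adjusted p = 0.00115); other probe sets gave -1.66, -1.03 and, from an x_at probe set, 0.25. Both catalytic subunits of the complex lay on the same side. CHUK read 1668 (Jeko-1) and 1824 (Jeko-1/R) against 801 (Raji) and 784 (Raji/R) (-1.14 ± 0.25, SE; adjusted p = 0.00676). IKBKB read 683 (Jeko-1) and 808 (Jeko-1/R) against 421 (Raji) and 296 (Raji/R) (-1.07 ± 0.28, SE; adjusted p = 0.0158), and its call was lost with quantile normalization (-0.74, adjusted p = 0.0760), with the mean of probe sets (-0.95, adjusted p = 0.0721) and whichever array was left out (-1.33 to -0.82).

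IKBKG, the regulatory subunit NEMO of the same complex, read 446 (Jeko-1) and 441 (Jeko-1/R) against 841 (Raji) and 617 (Raji/R). Its difference of 0.70 ± 0.26 had the other sign and did not pass the test (adjusted p = 0.0552), but was called with quantile normalization (1.03, adjusted p = 0.0149), with the higher floor (0.70, adjusted p = 0.0158) and with an intensity trend in the variance (adjusted p = 0.0441). IKBKE, an IκB kinase-related gene outside the complex, read 265 (Jeko-1) and 199 (Jeko-1/R) against 872 (Raji) and 890.4 (Raji/R). It was 3.83-fold higher in the Raji lines (1.94 ± 0.26, SE; adjusted p = 7.75e-04).

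Of the adaptors, 4 of the 5 measured genes were called higher in the Raji lines. IRAK1, a kinase recruited to Toll-like receptors, read 5489.9 (Jeko-1) and 5219 (Jeko-1/R) against 16554 (Raji) and 17352 (Raji/R) (3.17-fold, adjusted p = 0.00124). MYD88, the adaptor that brings it there, read 2507 (Jeko-1) and 2411 (Jeko-1/R) against 4703 (Raji) and 5244 (Raji/R) (2.02-fold, adjusted p = 0.0114). TRAF6, the ubiquitin ligase of the next step, read 237 (Jeko-1) and 196 (Jeko-1/R) against 430.3 (Raji) and 527 (Raji/R) (1.14 ± 0.27, SE; adjusted p = 0.00948). The TRAF6 result depends on the probe set, since the other one read 247, 250.1, 213 and 149 on the 4 arrays in the same order and pointed the other way (-0.48), and the mean of both was 0.33 (adjusted p = 0.282). The call was also lost with the higher floor (0.38, adjusted p = 0.0918).

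TRAF1, an adaptor of TNF receptors and itself an NF-κB target, read 178 (Jeko-1) and 21.1 (Jeko-1/R) against 627 (Raji) and 545 (Raji/R). It was 4.98-fold higher in the Raji lines, with the Jeko-1/R value raised to the floor (2.32 ± 0.31, SE; adjusted p = 7.89e-04), and its other probe set gave 2.46. TRAF3, which restrains MAP3K14, read 2796 (Jeko-1) and 2934 (Jeko-1/R) against 2604 (Raji) and 1991 (Raji/R). Its difference of -0.33 ± 0.26 did not pass the test (adjusted p = 0.318), and its other probe set gave 0.58.

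The feedback regulators TNFAIP3 and TNIP1 were higher in the Raji lines. TNFAIP3 edits ubiquitin chains to shut the pathway down and read 2374 (Jeko-1) and 1890.2 (Jeko-1/R) against 5431 (Raji) and 8048 (Raji/R). Its difference was 1.64 ± 0.30 (SE; 3.12-fold, adjusted p = 0.00313), with 2.16 from its other probe set. TNIP1, which binds TNFAIP3, read 1916 (Jeko-1) and 1682 (Jeko-1/R) against 10968 (Raji) and 12179 (Raji/R) (6.44-fold, adjusted p = 1.81e-04). Its dimmer probe set gave 0.69 and was not called when s_at and x_at probe sets were left out (adjusted p = 0.0951).

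CYLD, a deubiquitinase that opposes the pathway, had no settled direction. Its brightest probe set read 790.3 (Jeko-1) and 909.6 (Jeko-1/R) against 1235 (Raji) and 967 (Raji/R) (0.37 ± 0.27, SE; adjusted p = 0.285). The next brightest read 1114, 1117, 422 and 323 on the 4 arrays in the same order, a difference of -1.59, and 2 others gave -1.23 and -1.98. Without s_at and x_at probe sets CYLD was therefore called higher in the Jeko-1 lines (adjusted p = 0.00253).

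**Figure D2:**
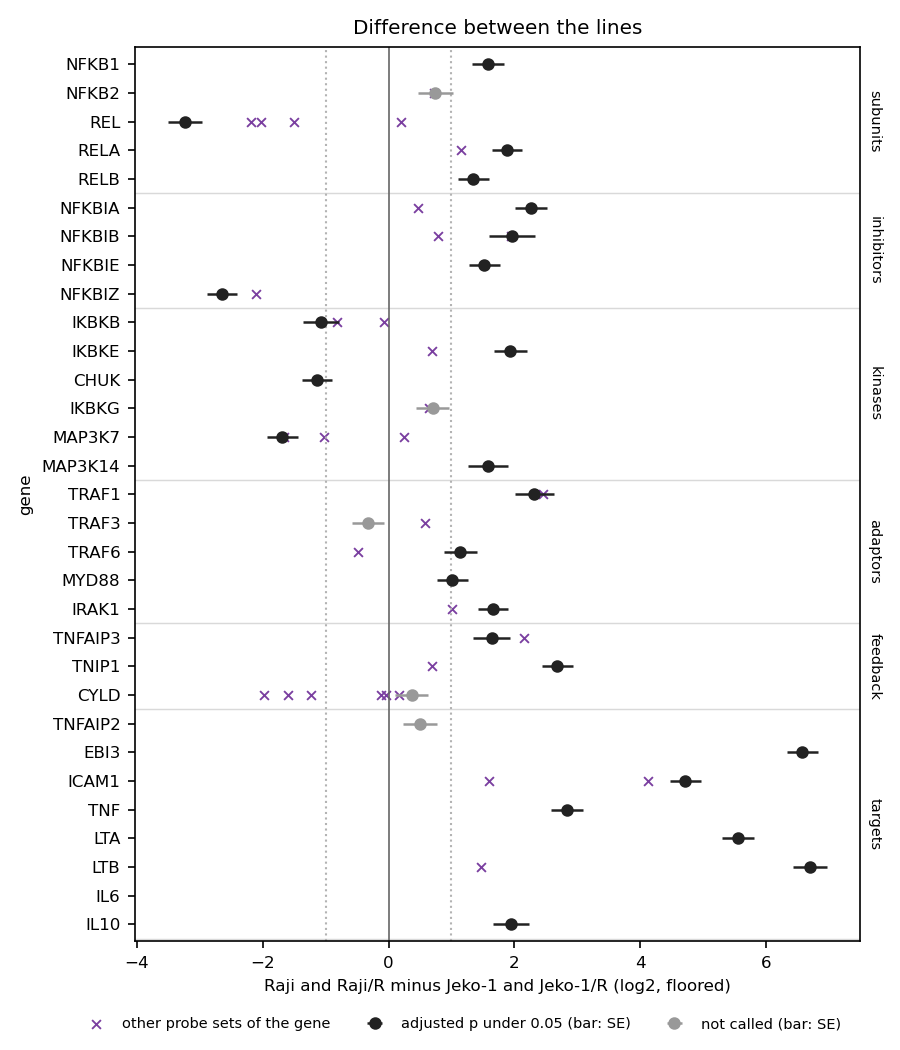
Difference in log2 signal, Raji and Raji/R minus Jeko-1 and Jeko-1/R (x axis), for each NF-κB pathway gene (y axis, by role); dots are the chosen probe set with its SE from limma (black, adjusted p under 0.05; grey, not called), crosses are other probe sets above the floor and dotted lines mark 2-fold. REL and NFKBIZ lie lowest at -3.24 and -2.65, LTB and EBI3 highest at 6.70 and 6.58, and the probe sets of CYLD fall on both sides of 0; IL6 was below the floor on every array.

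Among cytokine and other target genes, 6 of the 7 tested were called higher in the Raji lines, but 4 of these had to differ, as said above. Of the 3 that reached the floor on an array of each line, ICAM1 and LTB were called and TNFAIP2 was not. LTB, which anchors lymphotoxin in the membrane, read 94.1 (Jeko-1) and 84.6 (Jeko-1/R) against 7797 (Raji) and 11052 (Raji/R). The Jeko-1 values lie just above the floor and the difference was 6.70 ± 0.27 (SE; 104-fold, adjusted p = 2.46e-05), while a dimmer probe set gave 1.46. LTA, the other lymphotoxin chain, read 7.4 (Jeko-1) and 7.9 (Jeko-1/R) against 3266 (Raji) and 4058 (Raji/R), at least 47-fold higher in the Raji lines. TNF, which neighbours them in the genome, read 24.9 (Jeko-1) and 7.37 (Jeko-1/R) against 476 (Raji) and 642 (Raji/R), at least 7.13-fold higher. For LTA and TNF both Jeko-1 arrays were below the floor, so only this bound can be given.

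EBI3 encodes a cytokine subunit and is named for its induction by Epstein-Barr virus in B cells. It read 17.2 (Jeko-1) and 27.2 (Jeko-1/R) against 7634 (Raji) and 7211 (Raji/R), at least 95.8-fold higher in the Raji lines. ICAM1, an adhesion molecule of the cell surface, read 198 (Jeko-1) and 204 (Jeko-1/R) against 4851 (Raji) and 5747 (Raji/R), 26.3-fold higher (4.72 ± 0.25, SE; adjusted p = 3.22e-05). Its other probe sets gave 4.13 and 1.60. IL10, an anti-inflammatory cytokine that B cells can make, read 27.4 (Jeko-1) and 26.5 (Jeko-1/R) against 385 (Raji) and 231 (Raji/R), at least 3.85-fold higher.

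TNFAIP2, a TNF-induced gene, stayed near the floor with 86.6 (Jeko-1) and 66.8 (Jeko-1/R) against 99.3 (Raji) and 134 (Raji/R) and was not called (0.49 ± 0.27, SE; adjusted p = 0.165). IL6 was below the floor on all arrays, at 19.5 (Jeko-1) and 31.3 (Jeko-1/R) against 71.5 (Raji) and 76.5 (Raji/R). Not every classical NF-κB target was thus above the floor in the Raji lines. Over all members, 23 other probe sets of called genes were above the floor on some array, and 20 of these had the direction of the chosen probe set; the exceptions belonged to REL, MAP3K7 and TRAF6.

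Other genes of the pathway, listed by role, were examined in the same fit. The shares to read these counts against are those above, 30.1% of all genes called higher in the Raji lines and 23.3% in the Jeko-1 lines. No such share was taken over only the genes that reached the floor in both lines. Counts restricted to such genes, here and below, therefore have no like share beside them. Among 40 further NF-κB targets, 21 of the 29 tested were called higher in the Raji lines and 5 in the Jeko-1 lines, with a median at 4.01-fold higher in the Raji lines. Of the 21, 7 passed the floor only through the Raji arrays and had to differ; among the 21 targets that reached the floor on an array of each line, a count added after the data were seen, 14 were called higher in the Raji lines and 5 in the Jeko-1 lines. BCL2A1, a survival gene of the BCL2 family, read 59.2, 39.3, 3228 and 2460.3 on the arrays in the order used above (at least 36.4-fold). The death receptor gene FAS read 30.7, 79.4, 2366 and 2415 in the same order (30.5-fold, with Jeko-1 raised to the floor), the chemokine gene CCL22 read 6.39, 6.95, 1152 and 2501 (at least 21.9-fold) and the chemokine gene CCL4 read 241, 404, 5149 and 5743 (17.4-fold). The reverse held for IRF4, a transcription factor of plasma cell differentiation, which read 5515, 6385, 175 and 332 (24.6-fold higher in the Jeko-1 lines, adjusted p = 4.41e-05; -0.77 from its other probe set). IER3, an early response gene, read 639, 618, 4.87 and 174 and was also higher in the Jeko-1 lines (5.41-fold, with Raji raised to the floor).

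Receptors that feed the pathway were mixed, with 7 of 14 tested called higher in the Raji lines and 4 in the Jeko-1 lines (30.1% and 23.3% of all genes). Of the 11 that reached the floor in both lines these were 6 and 3, and the median difference over the 14 was 0.58. CD40, which drives both branches, read 388, 423, 2301 and 2796 on the 4 arrays in the same order (6.26-fold higher in the Raji lines, adjusted p = 1.72e-04; other probe sets 2.71, 2.48 and -0.92). The TNF receptor TNFRSF1A (1.76), the lymphotoxin receptor LTBR (1.53 from an x_at probe set, with both Jeko-1 arrays below the floor) and TLR9 (1.30) were higher in the Raji lines too. TLR7, a sensor of RNA, read 2316, 3054, 76 and 141 and was 25.5-fold higher in the Jeko-1 lines, with Raji raised to the floor (adjusted p = 3.67e-05), as were TNFRSF17, the receptor BCMA (-3.65), TLR4 (-2.38, with both Raji arrays below the floor) and TLR2 (-2.15, with Raji raised to the floor).

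The branch from the antigen receptor was measured by 4 of 6 listed genes, BCL10, MALT1, PRKCB and CARD14, and none was called by limma (0 of 4; 0 of these at unadjusted p under 0.05). All probe sets of BCL10 lay on the Raji side (0.58, 0.52 and 0.83), as did those of CARD14 above the floor (0.47, 0.54 and 0.04). All of MALT1 lay on the Jeko-1 side (-0.41, -2.30 and -0.12). Those of PRKCB were mixed, with -0.03 from the chosen one and -1.90, -1.82, -0.30 and 0.63 from the dimmer ones. Of 19 other kinases, adaptors and ubiquitin ligases, 8 were called higher in the Raji lines and 6 in the Jeko-1 lines (median 0.18). The shares of all genes called were 30.1% and 23.3%. Of the 17 that reached the floor in both lines, 7 and 5 were called. All 3 genes of the linear ubiquitin ligase were on the Raji side: RBCK1 (2.46), RNF31 (2.04) and SHARPIN (1.94). IRAK3 (-3.60, with both Raji arrays below the floor), the kinase gene TBK1 (-3.48), the ubiquitin ligase gene BIRC2 (-2.97) and TAB3 (-2.20), a partner of MAP3K7, were on the Jeko-1 side. Of 10 other negative regulators tested, 6 were called higher in the Raji lines, led by TNIP2 (3.16) and PDLIM2 (2.64), and 2 in the Jeko-1 lines, N4BP1 (-1.86) and TAX1BP1 (-1.36). These counts stand beside the same shares of all genes.

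**Figure D3:**
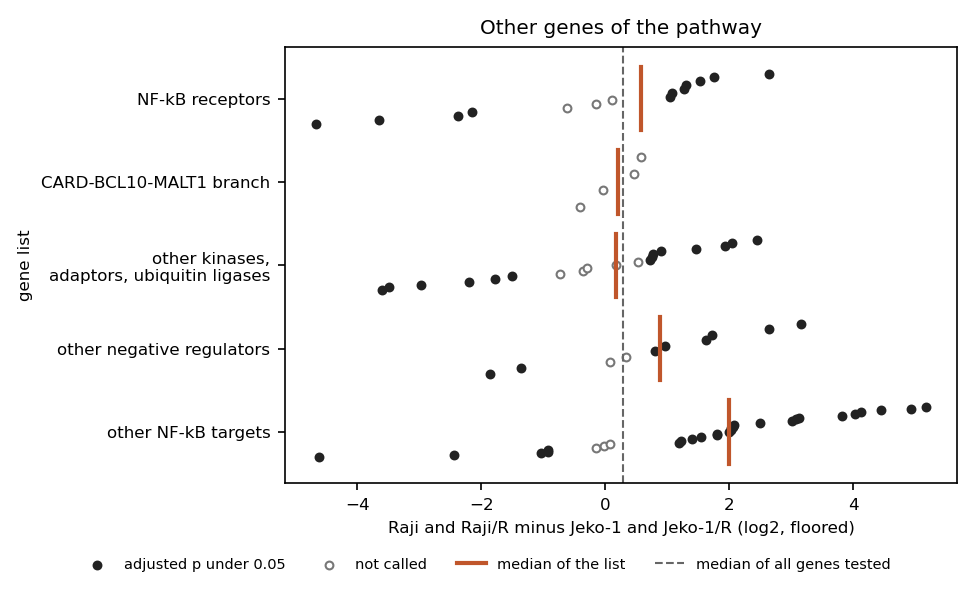
Difference in log2 signal, Raji and Raji/R minus Jeko-1 and Jeko-1/R (x axis), of the tested genes in 5 further lists of the pathway (y axis); filled dots had an adjusted p under 0.05 by limma, open dots did not, bars mark each list's median and the dashed line the median of all genes tested, 0.29. The median of the further targets lies at 4.01-fold, and the 4 measured genes of the CARD-BCL10-MALT1 branch lie within 1 log2 unit of 0.

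The second comparison set each resistant subline against its parent. On the chosen probe sets TRAF1, lower in Jeko-1/R, was the only measured member with a difference of 2-fold or more in either line. With 1 array per group there was no test within a line, and 2-fold was used as a size. In the Jeko-1 pair 0 of 26 measured members were at least 2-fold higher (0.38% of all genes) and 1 was at least 2-fold lower (0.595% of all genes). In the Raji pair 0 of 30 were 2-fold higher (7.01% of all genes) and 0 were 2-fold lower (2.64% of all genes). The median change was -0.02 for Jeko-1/R and 0.05 for Raji/R, beside 0.00097 and 0.08 over all genes measured. Over the members the SD was 0.33 for Jeko-1/R and 0.40 for Raji/R, and over all genes measured 0.30 and 0.59.

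TRAF1 went from 178 in Jeko-1 to 21.1 in Jeko-1/R, below the floor, so it was at least 2.29-fold lower. Its other probe set was below the floor in both (30.9 and 42.9), so this difference rests on 1 probe set of 1 pair of arrays; with the higher floor (signal 367) or the mean of probe sets 0 members reached 2-fold. In Raji/R TRAF1 differed by -0.20. TNFAIP3 had a difference of -0.33 in Jeko-1/R from its brightest probe set, and its other probe set went from 857 to 396 (-1.11). In Raji/R the same 2 probe sets gave 0.57 and 0.59, so TNFAIP3 was lower in the first resistant subline and higher in the second on both probe sets, a difference that was not tested.

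The subunits stayed close to their parents. In Jeko-1/R the 5 changes lay between 0.03 and 0.30, with RELB the highest. In Raji/R they ran from -0.53 for REL to 0.70 for NFKB2, whose other probe set gave -0.48. For RELA the change was 0.22 for Jeko-1/R and 0.19 for Raji/R, while its dimmer probe set gave -0.62 and, from 210.2 to 575, 1.45.

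Among inhibitors NFKBIB had the widest change in both resistant sublines (-0.68 for Jeko-1/R, 0.76 for Raji/R). Its other probe sets did not show the higher value in Raji/R, at 0.01 and -1.67. NFKBIA differed by 0.16 and -0.21, NFKBIE by -0.04 and 0.22 and NFKBIZ by -0.05 and -0.15. Each of these is smaller than the SD over all genes of the same pair.

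The kinases differed by -0.41 (IKBKE) to 0.44 (MAP3K14) in Jeko-1/R and by -0.65 (MAP3K14) to 0.03 (IKBKE) in Raji/R, so the same genes stood at opposite ends in the pairs. Adaptors other than TRAF1 lay between -0.27 (TRAF6) and 0.07 (TRAF3) in Jeko-1/R and between -0.39 (TRAF3) and 0.29 (TRAF6) in Raji/R. CYLD differed by 0.20 and -0.35 and TNIP1 by -0.19 and 0.15. None of these reached 2-fold on the chosen probe set.

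Target genes that were high in Raji stayed high in Raji/R. LTB differed by 0.50, TNF by 0.43, LTA by 0.31, ICAM1 by 0.24 and EBI3 by -0.08. IL10 stood lowest against its parent, from 385 to 231 (-0.74). In Jeko-1/R the measured targets were ICAM1 (0.05), LTB (-0.15) and TNFAIP2 (-0.16), and the others stayed below the floor as in the parent.

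**Figure D4:**
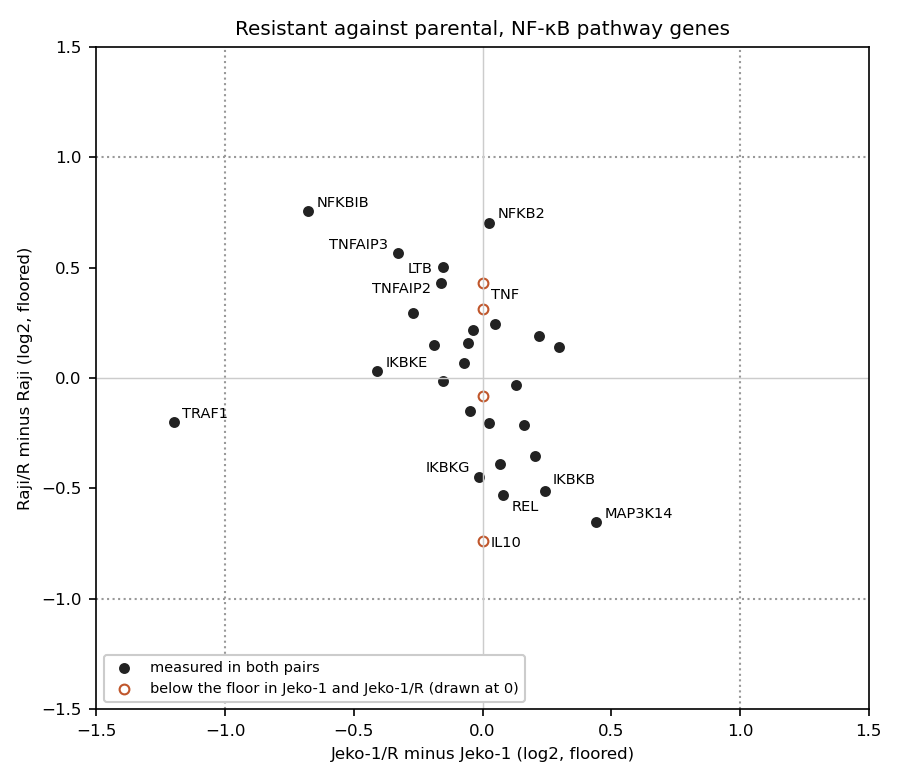
Change in log2 signal from parental to resistant in the Jeko-1 pair (x axis) and the Raji pair (y axis) for the 30 NF-κB pathway genes above the floor; open circles mark 4 genes below the floor in Jeko-1 and Jeko-1/R, drawn at 0, and dotted lines mark 2-fold. TRAF1 lies beyond the 2-fold line in Jeko-1/R at -1.20, and all other genes lie inside the lines.

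By individual probe set, 2 of 53 in the Jeko-1 pair were 2-fold lower (TRAF1 and TNFAIP3) and 0 higher, against 0.537% and 0.545% of all probe sets. In the Raji pair 2 of 61 were 2-fold higher (ICAM1, 1.04, and RELA, 1.45) and 2 were 2-fold lower (CYLD, -1.63, and NFKBIB, -1.67), against 7.73% and 2.88%. All 4 were dimmer probe sets of genes whose brightest probe set did not reach 2-fold.

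Over both lines, limma's resistance term with the cell line as a term called 0 of 30 members and 0% of all genes at adjusted p under 0.05 (0 members and 324 genes at unadjusted p under 0.05). The lowest adjusted p of a member was 0.974. Resistant and parental cells were paired by line, and an exact test of 2 pairs could not reach the threshold either; a call missed here does not show that expression was equal.

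Of the further pathway genes, 0 of 66 measured reached 2-fold in the Jeko-1 pair, where 0.38% of all genes were 2-fold higher and 0.595% were 2-fold lower. In the Raji pair 5 of 73 were at least 2-fold higher (6.85%, beside 7.01% of all genes) and 1 was 2-fold lower (1.37%, beside 2.64% of all genes), shares no higher than those of all genes. LTBR went from 148 to 337 (1.19), TNFRSF1B from 210.4 to 429 (1.03), TAB1 from 195 to 467 (1.26) and CCL22 from 1152 to 2501 (1.12). IER3 went from below the floor to 174, at least 2.24-fold. TLR1, a Toll-like receptor of the cell surface, went from 287 to 124 (-1.21). The Raji/R array, which had more probe sets above the floor than its parent, is the only array behind these changes.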

How the data were processed

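Biotin-labelled cRNA from 4 cultures was hybridised to 1 array each, per the labels' protocols. The authors deposited log2 signals of 54613 probe sets per array, made with MAS5 per the submitters' processing notes (version not given in the sources used here). Base 2 was inferred, since the trimmed mean signal (2% off each end) was then 493 to 497 on all arrays. The number of arrays limits the precision.

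Probe sets were named by the platform annotation; 41091 had 1 symbol, 1801 several and 11721 none, and 41037 gene IDs matched RefSeq (GRCh38.p14). The floor was a log2 of 6.28. limma 3.58.1 (R 4.3.3) was fitted with line and resistance as terms, two-sided, called at adjusted p under 0.05 (Benjamini-Hochberg); the pairing comes from each subline's parent. The labels name no separate cultures within a group, so p-values measure only the spread between these arrays, which may be technical. That spread is mostly pooled over all genes by limma, with 5.89 prior degrees of freedom (prior SD 0.263) beside 1 residual. Each SE and p-value is therefore not a gene's own spread alone. Values were given per array for subunits, NFKBIA, TNFAIP3, called members and members 2-fold apart within a pair, and from further lists for up to 4 called genes per direction and genes 2-fold apart within a pair; other members follow for completeness. Members and lists were chosen with earlier results of these data known. Scripts used Python 3.11.15, and the fit was tested on simulated data. Alternatives were quantile normalization, a floor at the 75th percentile, no floor, a pseudocount, other choices of probe set, an intensity trend, fits without a term, and each array left out in turn.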

Additional observations from a re-analysis of the deposited data

How the results depend on the processing

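Between the lines 25 members were called in the reported fit. Without a floor 0 members were called, and 0% of all genes. Without x_at and s_at probe sets 15 of 20 testable members were called, 14 of them among the 25, beside 49.4% of all genes. With the higher floor 23 of 29 were called, 22 of them among the 25, beside 72.3% of all genes. Under the other settings that kept all arrays 23 to 26 were called, beside 47.9% to 56.1% of all genes. With quantile normalization 24 of the 26 called were among the 25. The fits with 1 array left out had line as their only term, and their residual spread came from the line with both arrays. When Jeko-1 or Jeko-1/R was left out, the calls were lost over all genes and not only the members. When Raji or Raji/R was left out, calls of members were lost in part. Each of the 25 with a value kept its direction in all fits between the lines. With 1 array left out this had to be so, since both Raji arrays lay on the same side of both Jeko-1 arrays. The median difference of all genes, 0.29 as reported, was 0.41 with a pseudocount, 0.63 without a floor, 0.13 with the higher floor and 0.06 without Raji/R. CYLD, not called in the reported fit, stood at -1.59 without x_at and s_at probe sets. Members 2-fold apart from the parent in Jeko-1/R numbered 1 as reported, 0 under the 75th-percentile floor, 0 for probe sets averaged per gene and 2 (TRAF1 and TNF) without a floor. Members 2-fold apart from the parent in Raji/R were 0 under all 6 other settings. The resistance term called 0 members throughout, also as a fit with no replicate block. The parental arrays alone gave 22 members at least 2-fold apart, as did both states together. The rule for both states contains the parental rule, so these counts are not separate checks. For both states together 19.2% of all genes were higher in the Raji lines and 17.5% in the Jeko-1 lines. For the parental arrays alone no such share was taken. Leaving out an array left the resistance term no residual degree of freedom, so it was not run there. With 1 array per group, changes near the floor cannot be told from array noise.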
